A study of Mus musculus with 2 samples.

Results

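Cells with transcripts of the C-type lectins Cd209a, Clec10a or Mgl2 but without markers of other lineages were examined among leukocytes of the pancreatic islet. They numbered 155 of 22466 filtered cells, 54 of 12252 in WT NOD and 101 of 10214 in the library labelled NOD.Cxcl16-/-, from 24413 cells in all. A member had at least 500 detected genes, at most 10% mitochondrial UMIs (unique molecular identifiers, 1 for each captured transcript), at least 5 UMIs of the MHC class II gene H2-Aa and at least 1 UMI of Cd209a, Clec10a and Mgl2 together. It had no UMI of the type 1 dendritic cell genes Xcr1 and Clec9a, of the plasmacytoid gene Siglech or of Cd3d, Cd3e and Cd3g. It had at most 2 UMIs of C1qa, C1qb and C1qc together and at most 1 each of Fscn1 with Ccl22, of Ly6c2 and of Cd79a. These values chose the members, so their levels are described and not tested.

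NOD is an inbred mouse strain that develops autoimmune diabetes, and CXCL16 is a membrane-bound chemokine and the ligand of CXCR6. Both groups were females aged 12 weeks, of genotype NOD or NOD.Cxcl16-/-, and no other allele or treatment is named for either. Hand-picked islets were dispersed, and live CD45+ CD31- cells, which are leukocytes without endothelial cells, were sorted for 10x Genomics 3' single-cell libraries. Each genotype has 1 library, and the number of mice behind it is not given in the sources used here, so no difference has a replicate check, and p-values are not used because cells of 1 library do not replicate a genotype. Intervals are at the 95% level and cover counting error only.

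Conventional dendritic cells take up antigen and present it to T cells. Type 1 dendritic cells depend on IRF8 and carry XCR1, whereas type 2 dendritic cells carry SIRPα, depend in part on IRF4 and are held to favour presentation to CD4+ T cells. CD209a, CLEC10A (CD301a) and MGL2 (CD301b) are surface lectins found on part of the type 2 cells and on some macrophages. Dendritic cells carry islet antigen to the draining lymph node through the receptor CCR7, and in NOD mice they take part in starting the autoimmune response.

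Members contributed 600905 UMIs in WT NOD and 1202016 in the library labelled NOD.Cxcl16-/-, with medians of 12314 and 11556 UMIs and of 3049.5 and 2969 genes per cell. The libraries shared 45 barcodes, and none belonged to a member. Scoring against simulated doublets marked 1 and 0 members, against 9.80% and 8.18% of all filtered cells. The number marked in each library was set in advance, and the rule had left out cells with genes of other lineages. The low count therefore does not show that members hold fewer doublets than other cells. Cxcl16, the gene named in the label, was at 391 and 353 CPM in members (log2 ratio -0.15, interval -0.38 to 0.09), so its 3' transcripts were present in the library labelled NOD.Cxcl16-/-. Which part of the gene is altered is not given in the sources used here, and a 3' tag outside an altered part checks nothing. CPM (counts per 1000000) divides a gene's UMIs, pooled across the cells of a class, by all UMIs of those cells. Cxcr6, the receptor, was at 4.99 and 1.66 CPM.

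Members made up 0.441% of filtered cells in WT NOD (interval 0.331 to 0.575%) and 0.989% in the library labelled NOD.Cxcl16-/- (0.806 to 1.20%), a difference of 0.548 percentage points (0.328 to 0.783). Of cells with at least 5 UMIs of H2-Aa they made up 1.16% and 2.14%. Type 1 dendritic cells, chosen by at least 2 UMIs of Xcr1 and Clec9a, were at 0.269% and 0.538%. Macrophages, chosen by at least 10 UMIs of the C1q genes, were at 0.310% and 0.950%. Both classes were thus also a larger share of the library labelled NOD.Cxcl16-/-. Cells that met every limit but had no UMI of the 3 lectins were at 2.79% and 3.24%, and their median depth was 4189 and 9751 UMIs. The part of depth in these shares was not tested.

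Of the limits that exclude other lineages, the one on Cd3 removed the most cells that met every other limit, 89 of 143 in WT NOD (62.2%) and 74 of 175 in the other (42.3%). These cells had a median of 11 Cd3 UMIs in both libraries, and 29 and 21 of them were marked as doublets. With this limit lifted, the share was 1.17% and 1.71%, a difference of 0.546 points (0.234 to 0.869). The difference in points was nearly the same, and the ratio of the shares was smaller.

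Most members had UMIs of only 1 of the 3 lectins. Mgl2 alone had UMIs in 22 and 36 members, Clec10a alone in 15 and 20, Cd209a alone in 10 and 19, and all 3 genes together in 1 and 8. Of the members with Clec10a, 3 of 21 in WT NOD and 15 of 41 in the other also had Mgl2. Cd209a was present in 15 and 38 members, of which 5 and 19 had Clec10a or Mgl2. A single UMI of the 3 genes chose 14 and 35 members (25.9% and 34.7%), and 9 and 16 members had 10 or more. A member with a single UMI can show only 1 lectin. These counts therefore do not show that the lectins belong to different cells, and the part of low counts was not tested. B cells, which should lack these genes, had a UMI of any 1 of them in at most 0.701% of cells. The median depths of B cells were 4680 and 4746 UMIs. Among WT NOD members, 27.8% had Cd209a, 38.9% had Clec10a and 48.1% had Mgl2. The rule required a UMI of these genes and members were deeper, so their shares are no check on stray transcripts.

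**Figure D1:**
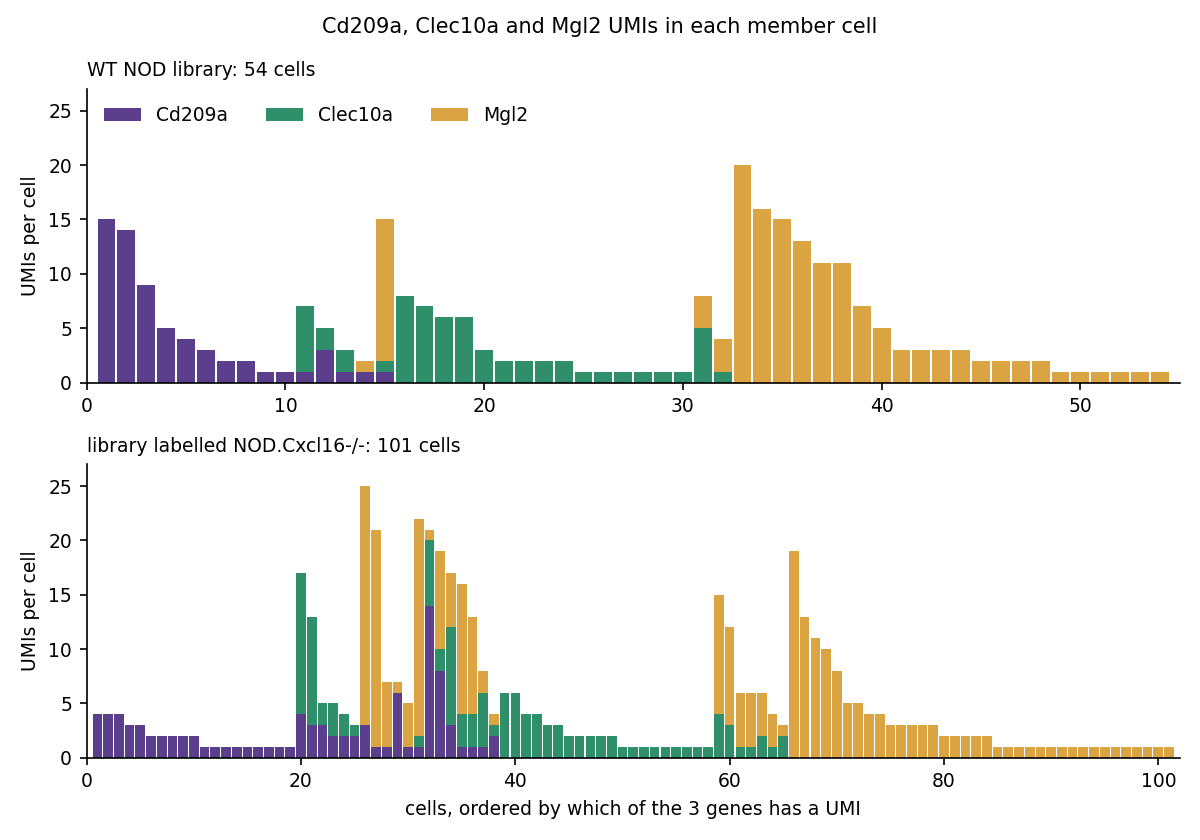
UMIs of Cd209a, Clec10a and Mgl2 (y axis) in each member cell (1 bar a cell, ordered by which of the genes had a UMI) of the WT NOD library (54 cells, top) and the library labelled NOD.Cxcl16-/- (101 cells, bottom). Most bars hold 1 colour, and bars with all 3 colours number 1 at the top and 8 at the bottom.

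Clec10a and Mgl2 are neighbouring genes of similar sequence. In GENCODE M21 on GRCm38, Mgl2 (ENSMUSG00000040950) lies at chr11:70130329-70137550 and Clec10a (ENSMUSG00000000318) at chr11:70156197-70170834, both on the plus strand, 18646 bases apart. Cd209a (ENSMUSG00000031494) lies at chr8:3743397-3748984 on the minus strand. Of the 451 stretches of 50 bases in the last 500 bases of the longest Clec10a transcript, 92 also occur in an Mgl2 transcript, and 0 of the 451 at the end of the longest Mgl2 transcript occur in Clec10a. Reads from shared stretches may have been left out or assigned to either gene, so the levels of this pair, and the split between them, are uncertain.

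The label was checked against genes that the rule did not use. Sirpa, the CD47 receptor that marks type 2 dendritic cells, was at 169.7 and 138 CPM in WT NOD members and members of the library labelled NOD.Cxcl16-/-, and had a UMI in 68.5% and 69.3% of them. Itgax (CD11c) was at 109.8 and 149.7 CPM, close to its level in type 1 cells (97.6 and 119.5 CPM). Flt3, the receptor for the growth factor of dendritic cells, was at 118 and 101 CPM, and Zbtb46, a transcription factor of conventional dendritic cells, was at 53.3 and 67.4 CPM. All 4 genes were detected in both libraries, and none differed 2-fold between them.

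Against type 1 dendritic cells (33 and 55 cells), members were at least 2-fold higher in both libraries for 165 genes and lower for 82, of 3263 counted. Irf8 stood at 115 and 106 CPM in members and 1128 and 928 CPM in type 1 cells. Sirpa was at 4.65 and 22.7 CPM in type 1 cells, and Irf4 was at 46.6 and 55.7 CPM in members and 3.10 and 11.3 CPM there. Naaa, a lysosomal amidase, and Cadm1, an adhesion molecule, both known from type 1 cells, were at 78.2 and 77.4 CPM and 23.3 and 15.8 CPM in members and at 659 and 423 CPM and 218 and 178 CPM in type 1 cells. The calcium-binding S100a4 was at 4105 and 3676 CPM and 674 and 699.8 CPM. Thus Irf4 and Sirpa were higher and Irf8, Naaa and Cadm1 lower in members in both libraries.

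Against C1q macrophages (38 and 97 cells), 138 genes were at least 2-fold higher and 166 lower in both libraries, of 2824. Lyz2 (lysozyme) was at 1018 and 1186 CPM in members and 11072 and 9007 CPM in macrophages. Fcgr1 (CD64) was at 61.6 and 33.3 CPM and 318 and 519 CPM, and Csf1r at 76.6 and 64.1 CPM and 249.9 and 204 CPM. Sirpa did not set members apart from macrophages, where it was higher at 358 and 333 CPM. Flt3 was at 9.43 and 37.4 CPM and Zbtb46 at 4.72 and 18.7 CPM in macrophages. These macrophages held the lectins too: 12 of 38 and 29 of 97 had a UMI of at least 1, with Mgl2 at 70.7 and 79.97 CPM. The lectins alone therefore did not separate members from macrophages.

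By these levels Sirpa and Irf4 separated members from type 1 cells, and Flt3 and Zbtb46 separated them from macrophages, which is as far as the label was checked. Of genes used to split type 2 cells into subsets, several had few UMIs and others did not. In the list for the T-bet-associated subset, Tbx21 was at 8.32 and 19.97 CPM, Esam at 1.66 and 0.832 CPM and Clec4a4 at 18.3 and 4.16 CPM, while Adam23 was at 69.9 and 79.03 CPM and Nr4a3 at 231 and 249.6 CPM. Of the list that holds the lectins, Clec12a was at 73.2 and 54.9 CPM and Cebpb at 171 and 181 CPM.

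**Figure D2:**
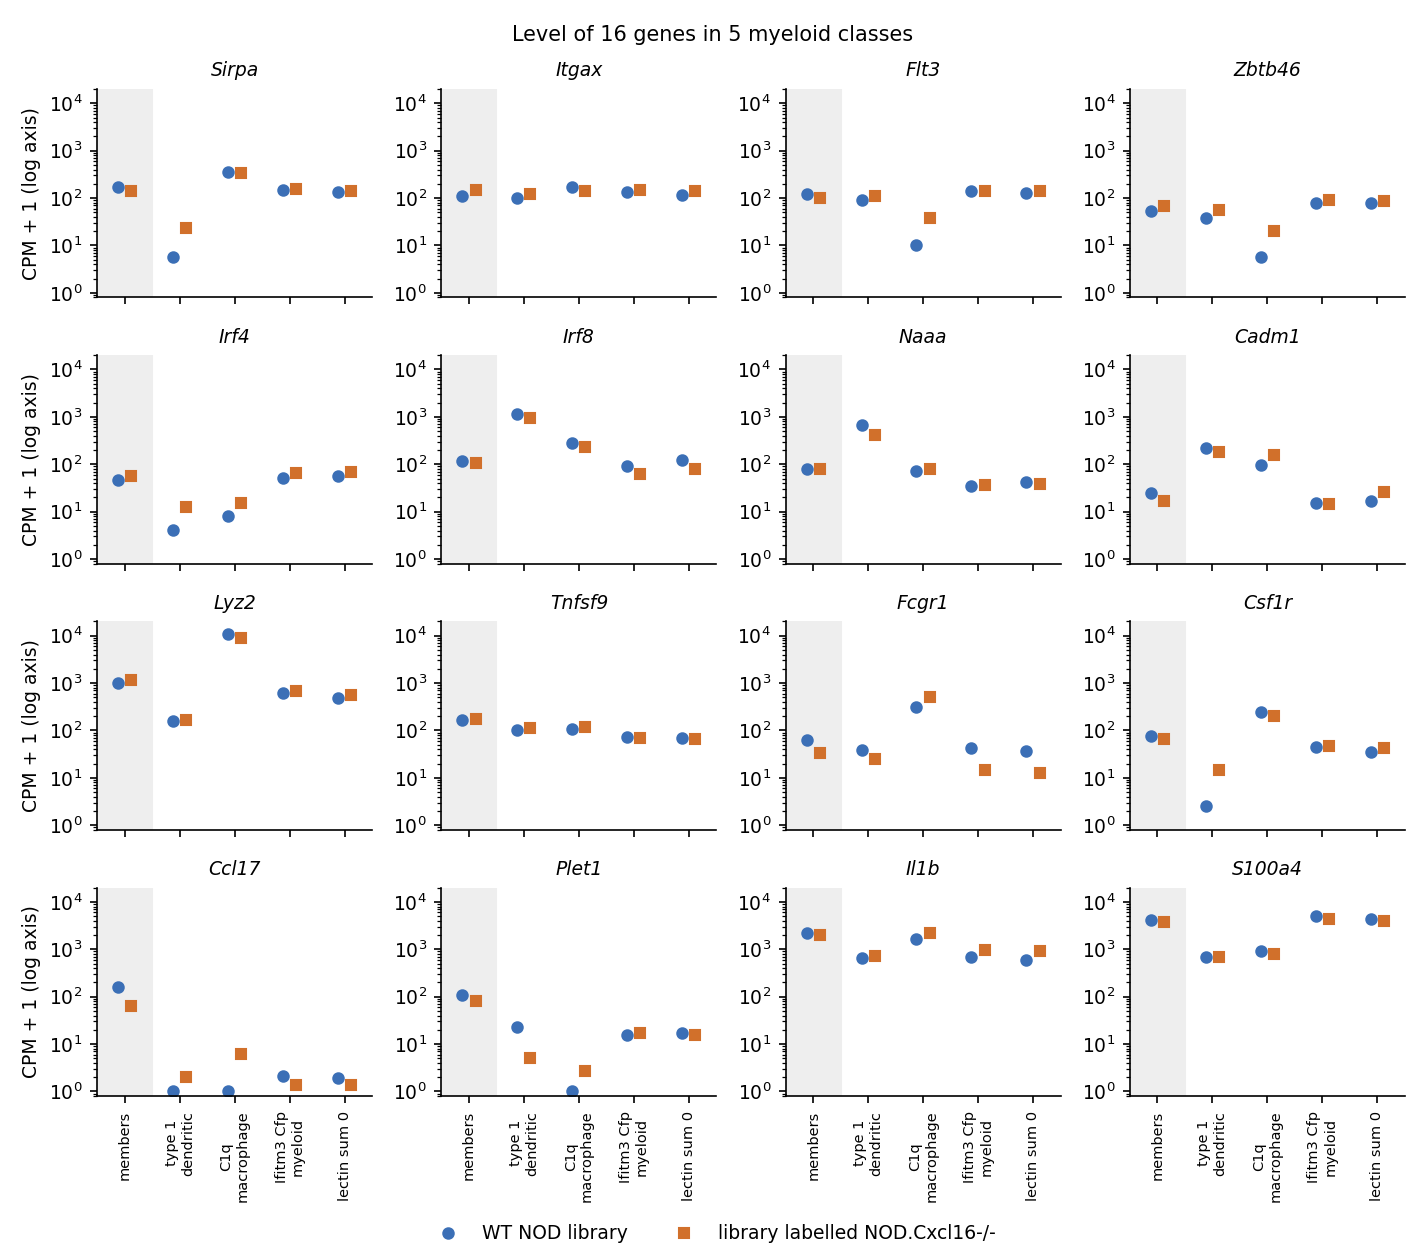
CPM plus 1 on a log axis for 16 genes in members (grey band) and 4 other myeloid classes, with 1 point for each library (circles WT NOD, squares the library labelled NOD.Cxcl16-/-) and no replicates. Irf8, Naaa and Cadm1 are highest in type 1 dendritic cells, Lyz2 and Fcgr1 are highest in C1q macrophages, and Ccl17 and Plet1 are highest in members.

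Cells just outside the threshold, which met every limit but had 0 UMIs of the lectins (342 and 331 cells), were close to members in most genes: 22 genes were at least 2-fold higher and 64 lower in members in both libraries, of 5730 counted. Of these outside cells, 211 and 234 also met the rule of at least 2 UMIs of Ifitm3 and Cfp that chose the Ifitm3 Cfp myeloid class, so these 2 classes are largely the same cells. Flt3 was at 126 and 139.5 CPM, Zbtb46 at 77.4 and 86.1 CPM, Sirpa at 134 and 139.9 CPM and Irf4 at 55.9 and 68.9 CPM in the outside cells. The lectins thus marked a part of a larger set of cells with similar levels of these 4 genes. Il1b, the inflammatory cytokine interleukin-1β, was at 2245 and 1997 CPM in members and 592 and 900.2 CPM outside.

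Members just inside the threshold, with 1 lectin UMI, had Flt3 at 135 and 109 CPM, against 113 and 97.1 CPM in members with 2 or more. Sirpa was at 303 CPM (interval 221 to 406) against 126 CPM (95.4 to 163) in WT NOD, and at 154 against 131 CPM in the other. Irf4 was at 20.2 against 55.3 CPM in WT NOD and at 81.2 against 44.98 CPM in the other, and Zbtb46 at 33.7 against 59.7 and at 84.0 against 60.4 CPM, so the order of these 2 genes was not the same in both libraries. Lyz2 was at 2378 and 1979.6 CPM in the former and 572 and 851 CPM in the latter. A single cell held 252 of the 612 Lyz2 UMIs of the WT NOD members and another held 310 of the 1426 of the other library. Ccl17 had no UMI in members with 1 lectin UMI in either library, where a count of 0 allows 3 UMIs.

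The gene that stood furthest above type 1 dendritic cells, C1q macrophages and Ifitm3 Cfp myeloid cells was Ccl17, a chemokine that attracts CCR4-bearing T cells, at 156 and 63.2 CPM in members. None of the other myeloid classes measured exceeded 5.10 CPM of it. Migratory mature dendritic cells, in whose gene list Ccl17 stands, were not among these classes. Ccl17 is therefore not shown to be particular to members. It came from few cells, 6 and 4 members, and 1 cell in each library held 52 of 94 and 59 of 76 of its UMIs. Plet1, a surface protein, was at 107 and 79.03 CPM in members, at most 21.7 CPM in the other classes measured, and was spread over 15 and 14 members. Tnfsf9, the 4-1BB ligand that costimulates T cells, was at 165 and 174 CPM in members and at 102 and 113 CPM in type 1 cells and 106 and 116 CPM in macrophages.

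Other genes by the same rule exceeded the next class by less. Hfe, an MHC class I-like regulator of iron uptake, was at 183 and 204 CPM, Rap2a, a small GTPase, at 135 and 175 CPM, and the secreted Olfm1 at 96.5 and 84.9 CPM. The antiviral membrane proteins Ifitm3 and Ifitm2 were at 2182 and 1825 CPM and 1042 and 1144 CPM, against 1597 and 1361 CPM and 772 and 874 CPM in the Ifitm3 Cfp class. Timd4, a receptor for phosphatidylserine, was at 139.8 and 124 CPM, and Dapk1, a death-associated kinase, at 171 and 136 CPM. Gm50022, BC018473, Gpr141, Eva1b and Hspb11 completed the 15 genes. Only Ccl17 and Plet1 exceeded the highest of these 3 classes by over 2 on the log2 scale in both libraries, and Gm50022 exceeded it by 1.03 in the library where it was closer.

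Members carried the genes of class II presentation, which is no finding of its own because the rule required H2-Aa. The class II list, H2-Aa included, summed to 49574 and 56536 CPM in members. It summed to 47962 and 47847 CPM in the cells just outside and 63977 and 69251 CPM in macrophages, so high class II was not particular to members. The invariant chain Cd74 was at 18550.4 and 21129 CPM and the class II chains H2-Ab1 and H2-Eb1 at 7971 and 8908 CPM and 7855 and 9229 CPM. Members held H2-DMb2, a chain of the peptide-loading factor, at 408 and 524 CPM, against 112 and 116 CPM in type 1 cells and 127 and 128 CPM in macrophages. The costimulatory ligand Cd86 was at 632 and 717 CPM, Cd83 at 349 and 490.0 CPM and Cd80 at 116 and 202 CPM. The inhibitory ligand Cd274 (PD-L1) was at 318 and 349 CPM. Cd80 was the most different of this group, with a log2 ratio of 0.79 (interval 0.41 to 1.20).

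Cells with at least 2 UMIs of 12 cell-cycle genes, after each cell was thinned to 3000 UMIs, were 3 of 46 members (6.52%) in WT NOD and 6 of 95 (6.32%) in the other, with 8 and 6 shallower members left out. Unthinned, the shares were 20.4% and 25.7%. In type 1 dendritic cells the thinned shares were 10 of 31 (32.3%) and 9 of 52 (17.3%). The intervals of the members, 1.37 to 17.9% and 2.35 to 13.2%, overlapped each other.

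Between the libraries, genes at least 2-fold apart were few. Of 4236 genes with at least 50 UMIs over all members, 48 (1.13%) were at least 2-fold higher in members of the library labelled NOD.Cxcl16-/- and 55 (1.3%) were lower, with 1 CPM added to both sides. The median log2 ratio was -0.01. The exact interval, which covers counting error within these cells, excluded 0 for each of the 48 and 55 genes. A minimum of 50 UMIs and a 2-fold ratio together nearly always give such an interval, so it adds no support. Each gene was also taken without its UMIs in the members richest in it, 1 cell in WT NOD and 2 in the other. Here and below, such a step kept the total UMIs of all cells as the divisor. After it, 40 of the 48 and 38 of the 55 were still 2-fold apart, and 1 and 3 of the 48 and 55 turned sign. Counted anew after this step, 65 genes were 2-fold higher and 59 lower.

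**Figure D3:**
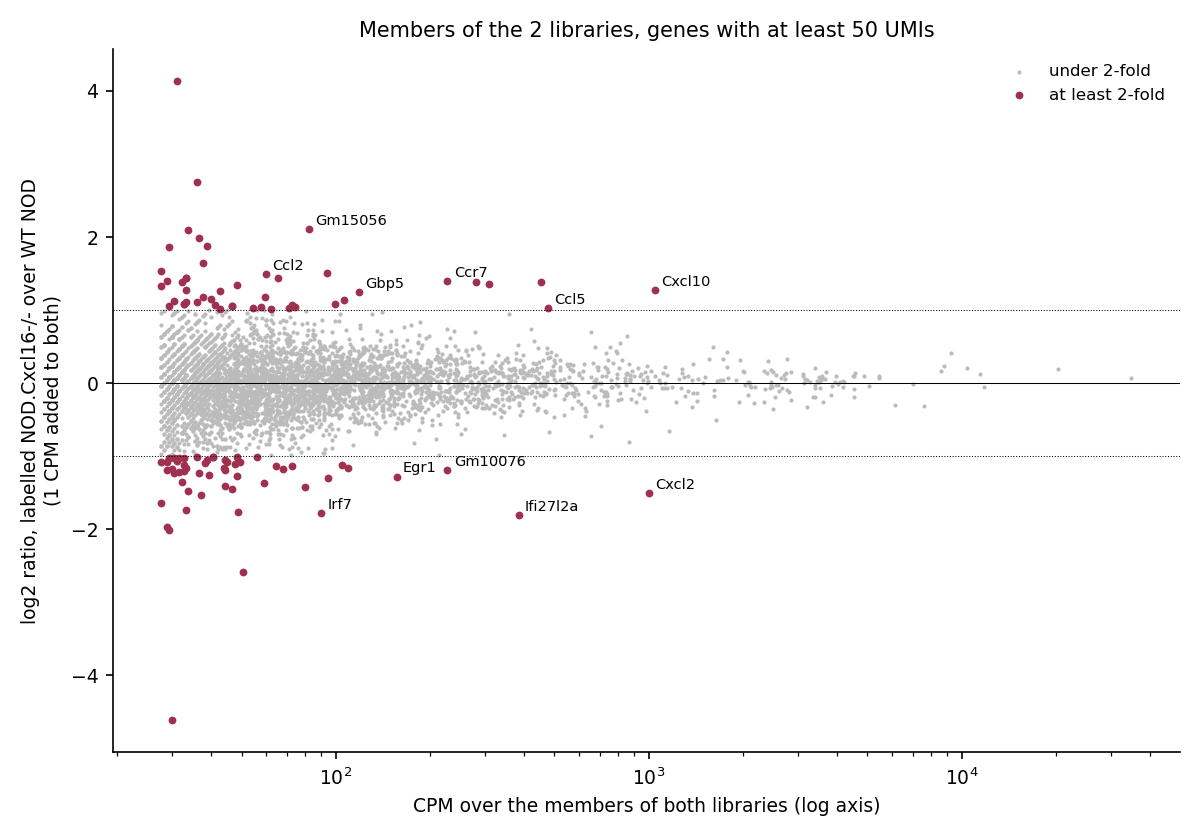
Log2 ratio of members of the library labelled NOD.Cxcl16-/- over members of the WT NOD library (y axis) against CPM over both (x axis, log), 1 point for each of 4236 genes, with no replicates. Red points are the 48 genes at least 2-fold higher and the 55 lower, most of them at low CPM, and 11 of the named genes are labelled.

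Ccr7, the receptor that guides dendritic cells to the lymph node, was at 108 CPM in WT NOD against 287 CPM (log2 ratio 1.40, interval 1.02 to 1.81). It had UMIs in 22 of 54 and 55 of 101 cells, and the ratio was 1.53 without the cells richest in it. In members with 2 or more lectin UMIs Ccr7 was at 104 and 348 CPM, and in members with 1 lectin UMI at 121 and 143 CPM, where the intervals overlap. Cells with more than 1 UMI of the mature-cell genes Fscn1 and Ccl22 had been left out by the rule. The ratio was above 0 in the other 5 classes too, at 2.51 in type 1 dendritic cells and 0.63 in the cells just outside. In the list of 19 genes of migratory mature dendritic cells, 13 had 50 UMIs. Of these, 2 were 2-fold higher and 1 lower, against 1.13% and 1.3% of all genes. The median was 0.11, with a range of 0.04 to 0.65 over the settings tried.

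Few interferon-response genes were at least 2-fold apart. Of 20 interferon-γ genes, 17 lay above 0, 2 were 2-fold higher and 0 lower, with a median log2 ratio of 0.16. Over all genes the median was -0.01, 48.2% lay above 0, 1.13% were 2-fold higher and 1.3% lower. The counting interval excluded 0 for 6 of the 20 above and 2 below. Cxcl10, a ligand of CXCR3 on T cells, was at 538 CPM in WT NOD against 1301 CPM (log2 ratio 1.27, interval 1.10 to 1.45), in 30 of 54 and 65 of 101 cells. Gbp5, a guanylate-binding protein, was at 61.6 CPM in WT NOD against 147 CPM (log2 ratio 1.24, interval 0.74 to 1.81), in 16 of 54 and 48 of 101 cells. Cxcl9, also a CXCR3 ligand, was at 1468 and 1854 CPM (log2 ratio 0.34), while Iigp1, an interferon-inducible GTPase, was at 64.9 and 34.9 CPM (log2 ratio -0.87). The median turned to -0.08 when members with any UMI of an excluded gene were left out.

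Of 21 type I interferon genes with 50 UMIs, 16 lay below 0, 3 were 2-fold lower and 1 higher, with a median of -0.30. Over all genes 51.8% lay below 0, 1.3% were 2-fold lower and 1.13% higher. The interval excluded 0 for 8 of the 21 below and 2 above. Irf7, the transcription factor that amplifies the type I response, was at 171 CPM in WT NOD against 49.1 CPM (log2 ratio -1.78, interval -2.29 to -1.33), in 24 of 54 and 34 of 101 cells. The exonuclease gene Isg20 was at 102 and 45.8 CPM (log2 ratio -1.13) and Ifit3 at 51.6 and 21.6 CPM (log2 ratio -1.22), of whose 31 UMIs in the WT NOD members 20 were in 1 cell. Without the richest cells the Ifit3 ratio was -0.43. Ifit2 went the other way at 41.6 and 85.7 CPM (log2 ratio 1.02). Ifi27l2a, outside the list, was at 736 CPM in WT NOD against 209 CPM (log2 ratio -1.81, interval -2.05 to -1.59). Irf7 and Ifi27l2a were also lower in each of the other 5 classes, with Irf7 at 379.6 and 70.6 CPM in macrophages and 111 and 50.99 CPM in the cells just outside, so these 2 differences were not found in members alone. The log2 ratio of Isg20 was below 0 in these classes too, from -0.07 to -1.53, and that of Cxcl10 above 0, from 0.18 to 0.51.

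Stretches upstream of 4 of the 6 interferon-response genes at least 2-fold apart are shown, 2 higher and 2 lower, so that genes of both directions can be read side by side. Each is the 250 bases before the start site, read 5' to 3' along the gene from RefSeq promoters on GRCm38.p6, and capitals mark matches to GAAANNGAAA, a core of the interferon-stimulated response element, searched on both strands (on the other strand it reads TTTCNNTTTC). Of 32851 such windows of all genes, 2.98% held a match.
Cxcl10, chr5:92348890-92349139, minus strand: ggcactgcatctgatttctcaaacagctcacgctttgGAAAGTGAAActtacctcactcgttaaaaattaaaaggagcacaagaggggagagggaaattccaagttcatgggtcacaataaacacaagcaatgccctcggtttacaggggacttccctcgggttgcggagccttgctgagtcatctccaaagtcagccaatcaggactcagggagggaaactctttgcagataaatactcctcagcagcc
Gbp5, chr3:142496684-142496933, plus strand: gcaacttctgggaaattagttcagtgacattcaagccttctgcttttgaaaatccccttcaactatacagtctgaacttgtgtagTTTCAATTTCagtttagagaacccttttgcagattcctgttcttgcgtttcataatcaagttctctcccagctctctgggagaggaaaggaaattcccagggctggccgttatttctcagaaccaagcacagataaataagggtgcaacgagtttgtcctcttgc
Ifit3, chr19:34583279-34583528, plus strand: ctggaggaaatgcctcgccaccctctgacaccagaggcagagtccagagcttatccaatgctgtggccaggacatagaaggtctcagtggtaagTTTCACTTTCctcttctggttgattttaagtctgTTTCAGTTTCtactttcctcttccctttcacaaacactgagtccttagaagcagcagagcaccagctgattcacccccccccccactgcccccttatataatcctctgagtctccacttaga
Irf7, chr7:141266425-141266674, minus strand: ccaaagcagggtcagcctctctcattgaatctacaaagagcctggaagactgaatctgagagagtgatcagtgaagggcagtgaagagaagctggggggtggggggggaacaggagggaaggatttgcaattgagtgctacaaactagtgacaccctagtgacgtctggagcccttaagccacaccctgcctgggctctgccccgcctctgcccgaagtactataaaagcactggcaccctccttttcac
The windows of Cxcl10 and Gbp5, which were higher, hold 1 match each, ending 203 and 155 bases before the start site. The Ifit3 window, of a lower gene, holds 2. The Irf7 window holds none of these letters, nor do the 3 windows of Isg20, lower, or the 2 of Ifit2, higher. Matches in these windows were thus found in both higher and lower genes. With 6 genes chosen from these data, the comparison cannot show whether the element goes with direction. A match across or beyond the start site would have been missed.

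Chemokines differed in both directions. Of 12 with 50 UMIs, 5 were 2-fold higher and 2 lower, against 1.13% and 1.3% of all genes, with a median of 0.60. Cxcl2, a neutrophil attractant, was at 1771 CPM in WT NOD against 621 CPM (log2 ratio -1.51, interval -1.65 to -1.38), and 1 of the 54 WT NOD members held 318 of its 1064 UMIs. Its ratio was -1.28 without the richest cells. Ccl5 was at 281 and 574 CPM (log2 ratio 1.03), with 203 of 690 UMIs in 1 cell of the library labelled NOD.Cxcl16-/- and a ratio of 0.59 without the richest cells. In the other 5 classes the Ccl5 ratio went the other way, from -0.20 in C1q macrophages to -1.02 in Ifitm3 Cfp myeloid cells. Ccl2, a CCR2 ligand, was at 26.6 and 76.5 CPM (log2 ratio 1.49), in 6 and 12 cells, with a ratio of 0.92 without the richest cells. Ccl7 had 1 UMI in WT NOD members and 55 in the others, 46 of them in 1 cell. Ccl17 was at 156 and 63.2 CPM (log2 ratio -1.29) and, with 6 and 4 cells behind it, its direction turned under another limit on the members (1.66 where no UMI of any excluded gene was allowed). Of the chemokines at least 2-fold apart, Cxcl10 and Cxcl2 were the ones detected in more than 50% of members in both libraries.

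Of 12 monocyte genes with 50 UMIs, 11 lay below 0, with 1 at least 2-fold lower and a median of -0.30. For this list and the next, the shares over all genes were 51.8% below 0 and 1.3% at least 2-fold lower. Ccr2, the receptor that brings monocytes and their progeny into tissue, was at 108 CPM in WT NOD against 47.4 CPM (log2 ratio -1.17, interval -1.73 to -0.65), and Plac8 at 820.4 and 695 CPM (log2 ratio -0.24). Lyz2 was the exception at 1018 and 1186 CPM (log2 ratio 0.22). The list of immediate early and heat shock genes had 15 of 19 below 0 and a median of -0.39, with 1 at least 2-fold lower: Egr1 was at 258 CPM in WT NOD against 106 CPM (log2 ratio -1.28, interval -1.64 to -0.94), and Fos at 1529 and 975 CPM (log2 ratio -0.65). The heat shock genes of the list lay on both sides, with Hspa1b at 289.6 and 169.7 CPM, while Dnajb1 and Hsp90aa1 were at 196 and 319 CPM (log2 ratio 0.70) and 528 and 747 CPM (log2 ratio 0.50).

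Of 16 class II genes, 11 lay above 0, against 48.2% of all genes, with a median of 0.13. The interval excluded 0 for 7 of the 16 above and 2 below. None was 2-fold apart, which sets them little apart from all genes, of which 1.13% were 2-fold higher and 1.3% lower. The 25 genes of dendritic cell identity had a median of -0.09 and none 2-fold apart. Costimulatory and coinhibitory ligands had a median of 0.14 over 11 genes, and pattern-recognition genes -0.11 over 11.

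**Figure D4:**
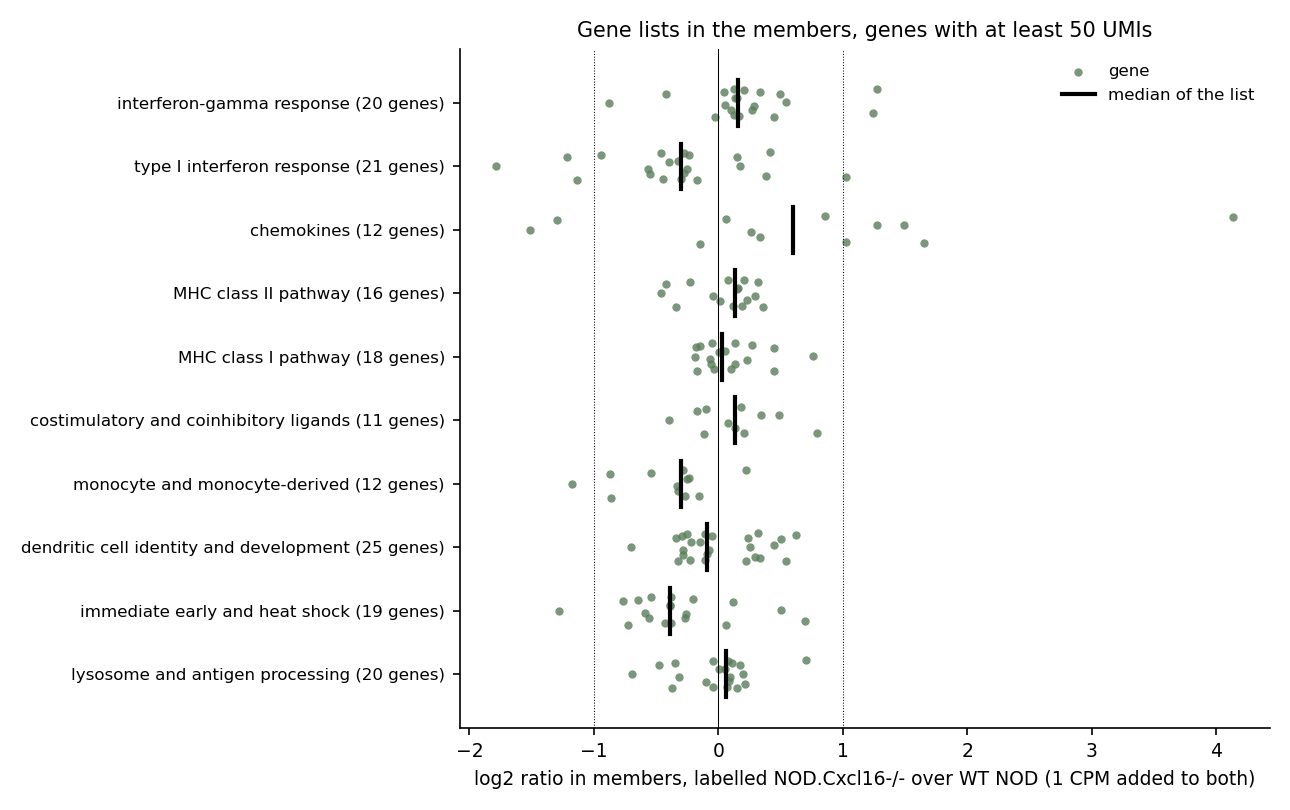
Log2 ratio in members, the library labelled NOD.Cxcl16-/- over WT NOD (x axis), for the genes of 10 lists with at least 50 UMIs (1 point a gene, bar the median of the list, no replicates). The interferon-γ list has its median at 0.16 and the type I list at -0.30, while chemokines spread from -1.51 for Cxcl2 to 1.65 for Cxcl1, apart from Ccl7 at the far right, which had 1 UMI in WT NOD members.

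Other genes named by the size rule were higher in the library labelled NOD.Cxcl16-/-: the adhesion gene Dscam at 29.95 and 83.2 CPM (log2 ratio 1.44), Matr3, a nuclear matrix protein, at 31.6 and 73.2 CPM (log2 ratio 1.19), Haus8, a spindle protein, at 56.6 and 121 CPM (log2 ratio 1.08), the HSP90 co-chaperones Chordc1 and Fkbp4 at 41.6 and 88.2 CPM (log2 ratio 1.07) and 33.3 and 69.9 CPM (log2 ratio 1.05), and the calcium pump Atp2b1 at 43.3 and 89.8 CPM (log2 ratio 1.04). Gm15056 was at 24.96 and 111 CPM (log2 ratio 2.10) in 3 and 11 cells. Lower were the surface protein Cd7 at 175 and 77.4 CPM (log2 ratio -1.17), Ramp1, a co-receptor for calcitonin gene-related peptide, at 115 and 51.6 CPM (log2 ratio -1.14), Gm10076 at 364 and 159 CPM (log2 ratio -1.19) and AC149090.1 at 138 and 50.7 CPM (log2 ratio -1.43). Ramp1 and Cd7 came to -0.56 and -0.88 without the richest cells. Mmp12, a macrophage elastase, was at 99.8 and 38.3 CPM (log2 ratio -1.36), but 48 of 60 and 42 of 46 of its UMIs were in 1 cell of each library. Dscam, Haus8, Chordc1 and Fkbp4 were also above 0 in each of the other 5 classes, and Gm10076 was below 0. The rest of these genes had ratios on both sides of 0 there.

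Transcripts of other cell types were present and differed between the libraries. Islet endocrine, acinar and endothelial genes summed to 629 and 1028 CPM in members, with 10 and 8 of 19 genes at 0 and Ins2 at 218 and 571 CPM (log2 ratio 1.38). The sum follows the insulin genes, since 3 of the 5 hormone genes with 50 UMIs were lower, Gcg at 115 and 18.3 CPM, Sst at 69.9 and 32.4 CPM and Iapp at 59.9 and 32.4 CPM. Of the 686 Ins2 UMIs in members of the library labelled NOD.Cxcl16-/-, 259 were in 1 cell. B cells had Ins2 at 19.1 and 66.5 CPM, whereas the same list summed to 23607 and 10614 CPM in C1q macrophages, the other direction. B and plasma cell genes summed to 389 and 659.7 CPM, with 4 and 0 of 12 at 0. Of the 466 Igkc UMIs in the library labelled NOD.Cxcl16-/-, 251 were in 1 member. T and NK cell genes summed to 419 and 643 CPM, with 2 and 4 of 16 at 0. Without Ccl5 the sum was 138 and 69.1 CPM, the other direction. More than 1 UMI of 8 further B- and T-cell genes was found in 8 and 12 members, and without them Ccr7 and Irf7 had log2 ratios of 1.38 and -1.82, and Ccl5 had 1.86 in place of 1.03.

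Members with Cd209a and neither Clec10a nor Mgl2 (10 and 19 cells) were set beside members with Clec10a or Mgl2 and no Cd209a (39 and 63 cells). Of 3707 genes, 18 were at least 2-fold higher and 65 lower in the Cd209a group in both libraries. 56 of the 65 had 3 or fewer UMIs in the Cd209a group of at least 1 library, so these counts rest largely on few UMIs. Median depth was 8882.5 and 11344 UMIs in the Cd209a group and 13825 and 12448 in the other. Adam23, a cell adhesion protein in the T-bet subset list, was at 258 against 41.8 CPM in WT NOD and 169 against 33.03 CPM in the other, from 4 of 10 and 14 of 19 cells of the Cd209a group. Mef2c, a transcription factor, was at 193 against 77.3 CPM and 248 against 48.9 CPM. The transcription factors Klf2 and Nr4a1 were at 348 against 111 CPM and 593 against 132 CPM in WT NOD, and at 178 against 70.02 CPM and 229.5 against 95.1 CPM in the other. Smarca2, a chromatin remodeller, was at 116 against 35.5 CPM and 93.7 against 35.7 CPM. Ahnak, Fkbp15, Pdcd4 and Tmem243 also passed 2-fold in both, while the 51 UMIs of C920021L13Rik in WT NOD were all in 1 cell.

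The genes lowest in the Cd209a group had few UMIs there. Rsad2, which encodes the antiviral protein viperin, had 0 UMIs in that group in both libraries and 89.8 and 107 CPM in the other. These levels were 2.32 and 7.61 times the level of 3 UMIs over the Cd209a group. The counting interval of the log2 ratio, Cd209a group over the other, ended at -0.86 and -2.60. Ccl17 was at 0 against 190.0 CPM in WT NOD, 4.92 times the level of 3 UMIs, and its interval ended at -1.97. In the other library Ccl17 was at 0 against 14.5 CPM, which is near that floor. Members with Cd209a and also Clec10a or Mgl2, in neither group, had Ccl17 at 67.6 CPM in WT NOD. In the other library they had it at 281 CPM, with 59 of their 65 UMIs in 1 cell. Ccl17 was thus not absent from cells with Cd209a. Ccl2 was at 90.2 and 207 CPM in these members. Zdhhc14 in the Clec10a or Mgl2 group was at 1.46 and 4.14 times the level of 3 UMIs, from 14 of 39 and 22 of 63 cells. Its intervals ended at -0.15 and -1.69. Il1rn, the interleukin-1 receptor antagonist, had 0 and 3 UMIs in the Cd209a group and 48 and 136 in the other. Il12b was at 0 in the Cd209a group of both libraries, but 51 of its 56 UMIs in WT NOD were in 1 cell. Clec4n, Ccl2, Gm15056, AY761185 and Apoe were also among the 10 genes lowest in the Cd209a group, with at most 23 UMIs in the other group of the WT NOD library.

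**Figure D5:**
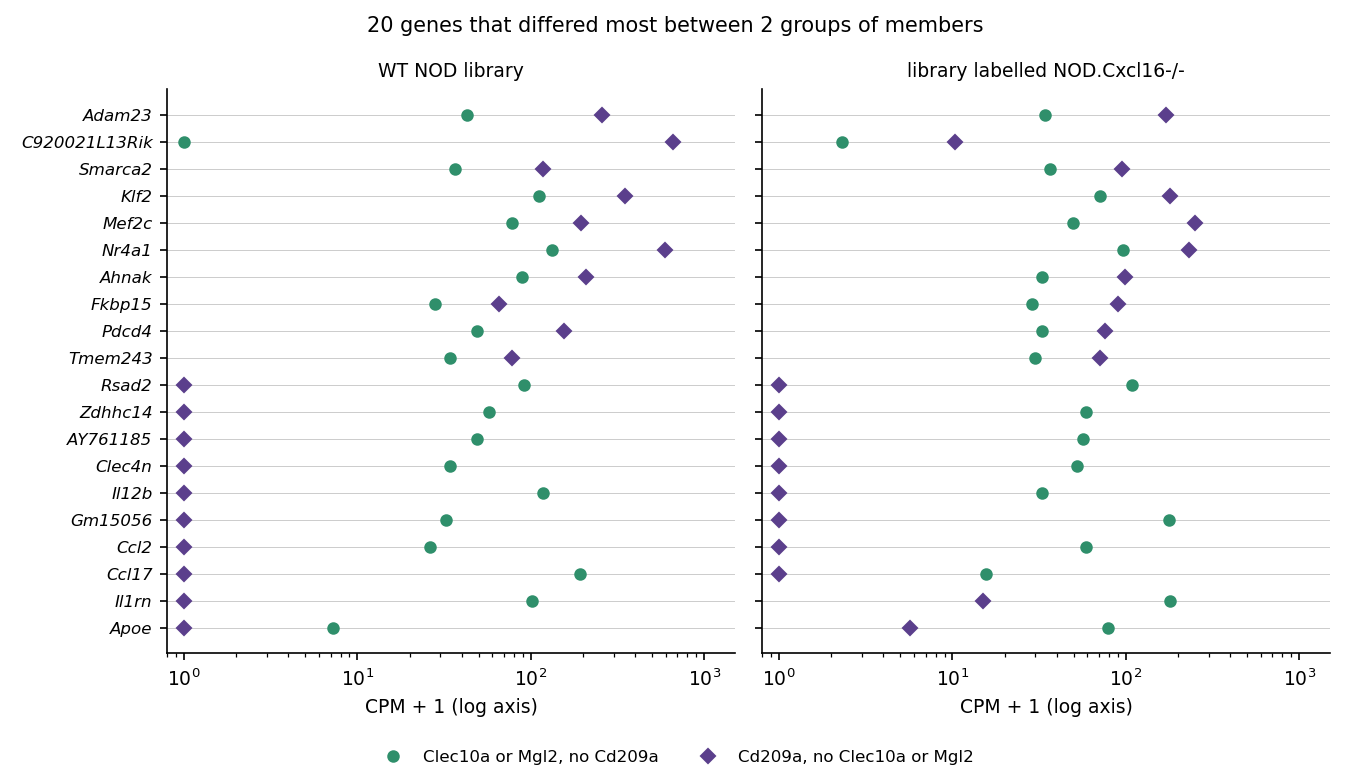
CPM plus 1 (x axis, log) of the 20 genes chosen as most different in members with Cd209a and no Clec10a or Mgl2 (diamonds) and in members with Clec10a or Mgl2 and no Cd209a (circles), for each library, with no replicates. Adam23 is further right for the Cd209a group in both, and points at 1 mark 0 UMIs.

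A further split, chosen after the values were seen, set members with Mgl2 and no Clec10a (23 and 41 cells) against those with Clec10a and no Mgl2 (18 and 26 cells). Of 3275 genes, 14 were at least 2-fold higher and 15 lower with Mgl2 in both libraries. H2-M2, a non-classical MHC class I gene, was at 747 against 145 CPM in WT NOD and 412 against 148 CPM in the other, in 9 of 23 and 17 of 41 cells with Mgl2 and 2 of 18 and 6 of 26 with Clec10a. With the H2-M2 UMIs of the richest cell of each group left out it was at 353 against 39.96 CPM and 329 against 85.8 CPM. The interferon-induced Rsad2, Ifit1 and Ifit2 were higher with Mgl2 as well, though Ifit2 was at 24.2 against 19.98 CPM in WT NOD without the richest cells. Ifit1 was at 89.96 against 34.97 CPM and 126 against 44.4 CPM. Dnase1l3, a secreted DNase, was at 111 against 49.95 CPM and 126 against 17.8 CPM.

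The Clec10a group held more Lyz2, with 353 against 2533 CPM for Mgl2 against Clec10a in WT NOD and 754 against 2486 CPM in the other, and 104 against 1274 and 532 against 1569 CPM without the richest cell of each group. Cebpb, a myeloid transcription factor, was at 83.04 against 309.7 CPM and 124 against 311 CPM, and Cd7 at 17.3 against 295 CPM (6.92 against 99.9 CPM without the richest cells) and 23.5 against 73.99 CPM. Tgfbi, a secreted matrix protein, was at 24.2 against 94.9 CPM (13.8 against 25.0 CPM without the richest cells) and 17.1 against 107 CPM. The order of the 2 groups was the same in both libraries for each of these genes, and no library was repeated.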

How the data were processed

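The submitters' processing notes name Cell Ranger 7.0.1 and the build mm10, and the authors deposited for each library a matrix of raw UMI counts per gene and cell, with no normalisation. Whether intronic reads were counted is not given in the sources used here. The lowest total of a deposited cell was 500 UMIs. From these counts, cells with fewer than 500 genes or over 10% mitochondrial UMIs were left out and members were chosen by raw UMIs. UMIs were summed over members in each library, scaled to CPM and compared as a log2 ratio with 1 CPM added to both, over genes with at least 50 UMIs. Ratios carry exact conditional intervals, CPM exact Poisson intervals and shares Clopper-Pearson intervals, with Newcombe's for a difference, all at 95% and for counting error only. No test was run. Doublet scores followed Scrublet's scheme, re-implemented with 2 simulated doublets for each cell, and high-scoring cells were removed only as an alternative. Code was tested on simulated data.

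The members and the 28 gene lists were chosen with earlier results of these data known. Named genes were the 12 with the largest ratio in each direction among those with at least 100 UMIs and an interval that excludes 0, the 15 furthest above 3 other classes at 50 CPM or more, the 10 furthest apart in each direction in the split by Cd209a, from each list up to 6 of the highest level and up to 3 in each direction, and Cxcl16, Cxcr6 and the 5 markers. Immunoglobulin, T-cell receptor, mitochondrial, ribosomal protein, haemoglobin, hormone and acinar genes, Xist and the 17 genes of the rule were kept out of the first 3 sets and of the counts in the split. Any other gene named was chosen after its values were seen. In all 20 alternatives were tried, 3 of them chosen after seeing the data. Of the list entries, 6 were matched to no symbol and are not analysed here. Gene positions are from GENCODE M21 (GRCm38). Python 3.11.15, numpy 2.4.6, scipy 1.17.1 and pandas 2.3.3 were used.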

Additional observations from a re-analysis of the deposited data

How the results depend on the processing

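With 1 library for each genotype no test is possible and no library could be left out. No paired analysis was possible because each genotype has 1 library and no result comes from a test. The share of members was 0.326% and 0.646% when 2 lectin UMIs were required (difference 0.320 points), 0.245% and 0.676% when no UMI of any excluded gene was allowed, 1.16% and 2.14% as a share of cells with at least 5 UMIs of H2-Aa (difference 0.986 points), and 1.17% and 1.71% with no limit on Cd3, a setting chosen after seeing the data. The counts of genes at least 2-fold higher and lower, 48 and 55, became 24 and 27 with 10 CPM added, 373 and 453 at a minimum of 10 UMIs, 7 and 4 at a minimum of 200 UMIs and 16 and 16 with members thinned to 3000 UMIs. With the mean of each cell's CPM, 95 were higher. Ccl17 turned to 1.66 when no UMI of any excluded gene was allowed. Mmp12 turned to 0.26 with the mean of each cell's CPM, 0.33 with thinned members and 0.87 without the 5% of members with the most UMIs. The cause was not tested. Over the settings tried, Ccr7 ranged from 1.00 to 2.29, Cxcl10 from 1.02 to 1.52, Irf7 from -1.85 to -1.51 and Ifi27l2a from -2.28 to -1.51. With 54 and 101 cells, few UMIs stand behind most genes.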

Other observations

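Chaperone genes were looked at after Chordc1 and Fkbp4 had been named, so the genes below were chosen after their values were seen. Hsp90ab1, a cytosolic HSP90, was at 1261 and 1781 CPM (WT NOD first, then members of the library labelled NOD.Cxcl16-/-), the HSP40 co-chaperone Dnaja1 at 463 and 749 CPM and the mitochondrial chaperonin Hspd1 at 156 and 261 CPM. Their log2 ratios were 0.50, 0.69 and 0.74. Each was above 0 in the other 5 classes as well, B cells included, at 0.57, 0.66 and 0.59 there. The stress-induced Hspa1b went the other way in members, at 289.6 and 169.7 CPM.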
